A study of Mus musculus with 6 samples.

Results

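Cyp26b1 and Aldh1a3 encode enzymes at opposite ends of retinoic acid metabolism, and their probe sets were followed array by array in the maxillary arch mesenchyme of mouse embryos with and without the transcription factor genes Lhx6 and Lhx8. The members were all probe sets that the deposited significance table assigns to either symbol. There were 2 of 1061 listed probe sets, 1 for each gene, and both were found by identifier among the 45037 probe sets of the value table that are not controls. Cyp26b1 was read by probe set 1460011_at (gene identifier 232174), which the file aligns to the minus strand of chromosome 6 from 84521412 to 84522917. Aldh1a3 was read by probe set 1417642_at (gene identifier 56847), aligned to the minus strand of chromosome 7 from 73535777 to 73572356. The genome build of these coordinates, and whether the probes lie in coding or untranslated exons, are not stated in the sources used here.

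The embryos were female, at embryonic day 10.5, matched for somite number, and of a background that mixes C57BL/6J, 129 and CD-1. The wild-type group had 3 embryos and the Lhx6-/-; Lhx8-/- group had 3, with 1 array for each embryo and no treatment. The sources used here do not say which part of each gene the mutant alleles lack. The tissue was the territory in which Lhx6 and Lhx8 are normally active, cut by laser from frozen head sections, and its RNA was amplified before hybridisation to Affymetrix mouse genome arrays, so each value is a mean over the cells of the piece, in which fewer cells of a type and less RNA per cell cannot be told apart. The study used this comparison to find genes under the control of the LIM-homeodomain pair, and the question here is how both enzyme genes stood in it.

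Retinoic acid is a small lipid signal made from vitamin A by successive oxidations. Retinol is first oxidised to retinal by dehydrogenases such as RDH10, and retinal is then oxidised to retinoic acid by the ALDH1A enzymes, of which ALDH1A3 is the one known from the nasal and ocular region of the mouse embryo; mouse embryos lacking it have blocked nasal passages. Retinoic acid binds nuclear receptors of the RAR and RXR families, and the cytochrome P450 enzymes of the CYP26 family remove it by oxidation. CYP26B1 is the family member known from facial and limb mesenchyme, and loss of Cyp26b1 in the mouse gives cleft palate and shortened limbs.

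Because Lhx6 and Lhx8 encode DNA-binding factors and Cyp26b1 intensity was lower without them, the sequence around the Cyp26b1 start site is shown, as given by RefSeq on GRCm38.p6 at chr6:84593761-84594060 on the minus strand. It runs 5′ to 3′ from 250 bases before to 50 bases after the annotated start, and capitals mark the letters TATAAA.
Cyp26b1 promoter: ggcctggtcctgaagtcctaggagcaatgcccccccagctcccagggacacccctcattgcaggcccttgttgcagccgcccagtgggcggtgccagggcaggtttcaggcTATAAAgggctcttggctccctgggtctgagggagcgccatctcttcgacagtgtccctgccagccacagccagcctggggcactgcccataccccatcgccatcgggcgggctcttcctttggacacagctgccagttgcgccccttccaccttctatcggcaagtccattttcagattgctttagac

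Of 4 motifs searched on both strands of this window, TATAAA matched once, at position -139 relative to the annotated start, and 13.6% of the 32851 promoters of the same length hold it. The homeodomain core TAATTA did not match, and 5.29% of promoters hold it. The shorter TAAT, which lies within TAATTA, did not match, and 58.0% of promoters hold it. The retinoic acid receptor half-site AGGTCA did not match, and 16.3% of promoters hold it. The window was 62.3% G and C, against a median of 52.7% over all promoters. An absent match says only that these letters are not in this window, and no binding was measured here.

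The genotype labels were checked first with Lhx8, for which the raw intensities of the deposited significance table were 8627.8, 8975.7 and 9492.8 in wild type and 5176.5, 2711.0 and 3177.2 on the arrays labelled double mutant 1, 2 and 4. In the value table, which holds the whole array on another scale, Lhx8 stood at 2063.3, 1991.6 and 2240.5 in wild type while the mutant arrays held 2036.0, 699.3 and 910.5. The array labelled double mutant 1 therefore lay inside the wild-type range for Lhx8 in the value table and below it in the deposited table. Whether the Lhx8 probes lie within the deletion is unknown, so this is a limited check of genotype, and no listed probe set carries the name Lhx6. That array also stood apart in its control probe sets, with a ratio of 3′ to 5′ signal of 24.8 for Actb and 17.8 for Gapdh, where the other arrays had 1.62 to 1.85 and 1.36 to 1.6. Median intensity in the value table was 19.0 to 20.5 on the 6 arrays, and having 3 arrays in each group limits how precisely any value is known.

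Cyp26b1, the retinoic acid degrading enzyme, had lower intensity on every double-mutant array than on any wild-type array. Its raw intensities in the deposited table were 406.3, 246.8 and 282.2 on the wild-type arrays without a number, 4 and 5, and 28.6, 60.8 and 108.0 on the arrays labelled double mutant 1, 2 and 4. The highest double-mutant array, double mutant 4, was 2.29-fold below the lowest wild-type array, and the groups did not overlap. The deposited table holds only probe sets picked on this contrast, so groups set apart in its columns are not a result about Cyp26b1. The wild-type mean was 311.7 ± 83.7 and the double-mutant mean 65.8 ± 40.0 (SD, n = 3). Relative spread was wider in the mutants, with a coefficient of variation of 60.7% against 26.9% in wild type, and each mutant array fell below the wild-type geometric mean by its own factor: 10.7-fold on the array labelled double mutant 1, 5.01-fold on double mutant 2 and 2.82-fold on double mutant 4.

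In the authors' deposited table Cyp26b1 was 5.32-fold lower, with an unpaired-test p of 0.0155 that was not corrected for the number of probe sets. The fold is a ratio of geometric means and ranked 8th by size among the 416 probe sets listed as lower, whose median fold was 1.61. By p it ranked 134th of these 416. Cyp26b1 met all 3 of the study's criteria. These were a fold above 1.5, an uncorrected p below 0.05 and an average signal above 100 in at least 1 group. The signal was read from the raw intensities, and both group means in the value table, 71.5 and 8.3, were below 100. The table lists only probe sets picked on this same contrast, 0.924% of those on the array as lower and 1.43% as higher, so that being listed is a property of both genes and not a result about them.

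The value table gave the same order of double-mutant arrays for Cyp26b1. Its intensities there were 85.6, 55.9 and 72.9 on wild-type arrays 1, 4 and 5, and 1.2, 9.4 and 14.4 on the arrays labelled double mutant 1, 2 and 4. The lowest wild-type array was 3.88 times the highest double-mutant array, with wild-type and double-mutant means of 71.5 ± 14.9 and 8.3 ± 6.7 (SD, n = 3). All 3 wild-type arrays were above their array medians and all 3 double-mutant arrays below theirs, and the double-mutant values are low enough that a ratio to them is imprecise. The ratio of geometric means was 12.9, and 6.05 without the array labelled double mutant 1, against 5.32 and 3.76 from the raw intensities of the deposited table.

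With 16 added to each value of the value table before taking log2, which understates changes of dim probe sets, limma gave Cyp26b1 a log2 fold change of -1.87 ± 0.25 (SE), with a 95% confidence interval from -2.49 to -1.25. The unadjusted limma p was 0.000357, rank 15 among the 45037 probe sets, and the adjusted p was 0.857. Both enzyme genes came from a listing picked on this same contrast in the same series. Their unadjusted limma p-values and ranks, here and below, are thus descriptions and not independent support. Cyp26b1 did not pass the test after adjustment, nor did any other probe set: 0 of the 45037 probe sets (0.0%) had an adjusted limma p under 0.05, against 1646 with an unadjusted limma p under 0.05 and 1 past adjustment by the ordinary per-probe-set test. On the lower side, an unadjusted limma p under 0.05 was reached by 1.47% of all probe sets, and 4.06% had double-mutant values that all lay below all wild-type values. An exact permutation test of 3 arrays against 3 cannot give a p under 0.1, so none is reported.

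The array labelled double mutant 1 held the lowest Cyp26b1 value in both tables, and the difference was present without it. Leaving it out gave a limma log2 fold change of -1.64 ± 0.18 (SE), with an interval from -2.09 to -1.19, an unadjusted p of 0.000148 and an adjusted p of 0.243. Over the 6 fits that each left out 1 array, the log2 fold change ran from -2.05 to -1.64 and the unadjusted limma p from 0.000148 to 0.00242.

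**Figure D1:**
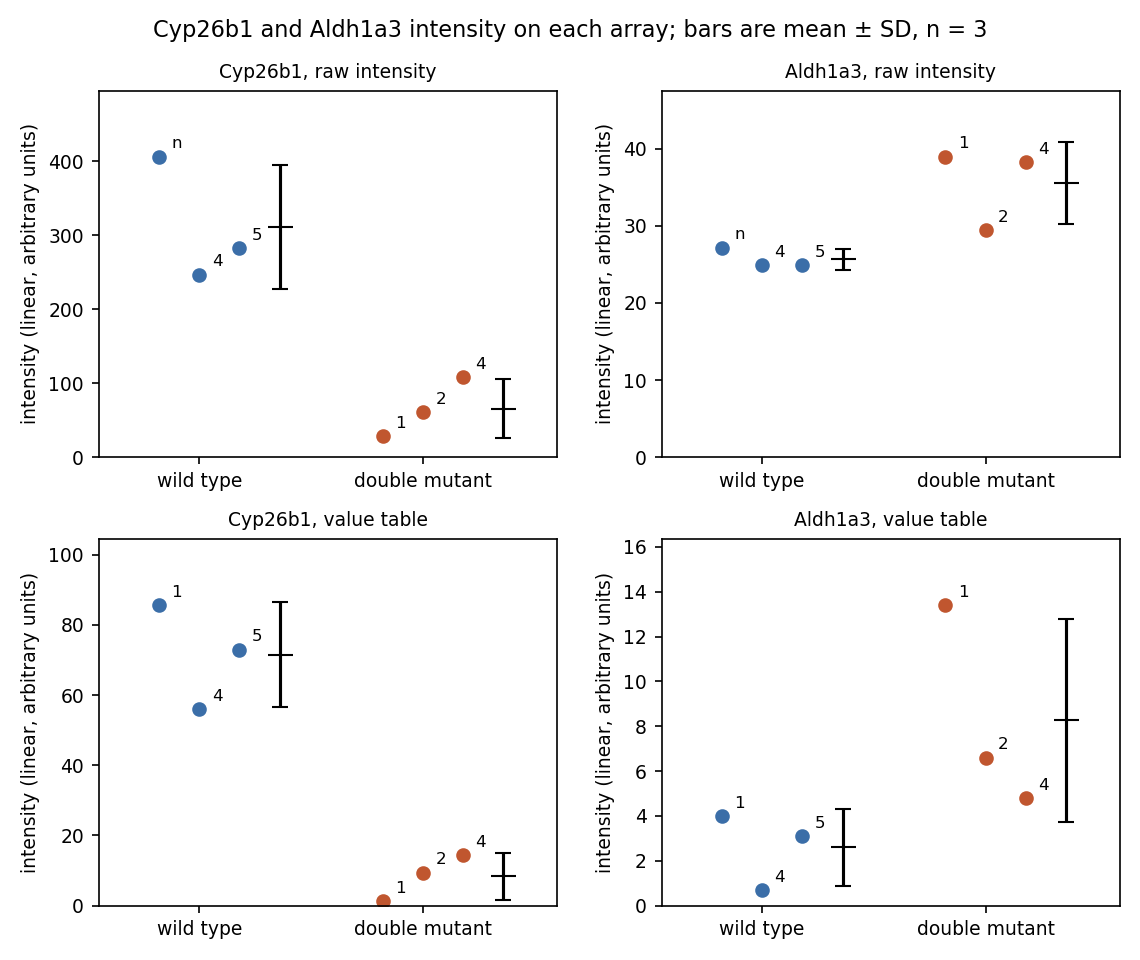
Intensity of Cyp26b1 (left) and Aldh1a3 (right) on each array, in the raw columns of the deposited table (top) and in the value table (bottom), on linear axes that start at 0. Points are arrays marked with their replicate number (n marks the wild-type column without one), and bars are mean ± SD of 3 arrays; Cyp26b1 groups are far apart in both tables, while the Aldh1a3 groups are separated by 2.25 and 0.8 intensity units.

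Aldh1a3, the retinoic acid producing enzyme, was dim on all arrays and slightly higher in the double mutants. Its raw intensities in the deposited table were 27.2, 24.9 and 24.9 in wild type and 39.0, 29.4 and 38.3 on the arrays labelled double mutant 1, 2 and 4. The groups did not overlap, which the picking of listed probe sets on this contrast favours. Double mutant 2 was only 1.08 times the highest wild-type array. The wild-type mean was 25.6 ± 1.3 and the double-mutant mean 35.6 ± 5.3 (SD, n = 3). In the authors' deposited table Aldh1a3 was 1.38-fold higher with p = 0.0286 by the unpaired test without correction, a fold close to the median of 1.41 among the 645 probe sets listed as higher. Of the study's 3 criteria Aldh1a3 met the one on p and not those on fold and intensity.

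In the value table Aldh1a3 stood below the array median on every array. Its intensities were 4.0, 0.7 and 3.1 in wild type and 13.4, 6.6 and 4.8 on the arrays labelled double mutant 1, 2 and 4. The lowest double-mutant array exceeded the highest wild-type array by 0.8 intensity units, and the wild-type and double-mutant means were 2.6 ± 1.7 and 8.3 ± 4.5 (SD, n = 3). Among all probe sets 6.72% had every double-mutant value above every wild-type value, and among those with a wild-type mean at or below the median of all probe sets, as for Aldh1a3, 8.66% did. The order of the mutant arrays differed between the tables: double mutant 4 was close to double mutant 1 in the deposited table and lowest in the value table.

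For Aldh1a3 limma gave a log2 fold change of 0.37 ± 0.17 (SE), with a 95% confidence interval from -0.05 to 0.79. The unadjusted limma p was 0.0730 and the adjusted p 0.857, where 2.18% of all probe sets were higher with an unadjusted limma p under 0.05. In the value table a difference of either sign, or none, was thus compatible with the interval. Without the array labelled double mutant 1, which held the highest Aldh1a3 value in both tables, the log2 fold change was 0.23 ± 0.13 (SE) and the unadjusted limma p 0.129.

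**Figure D2:**
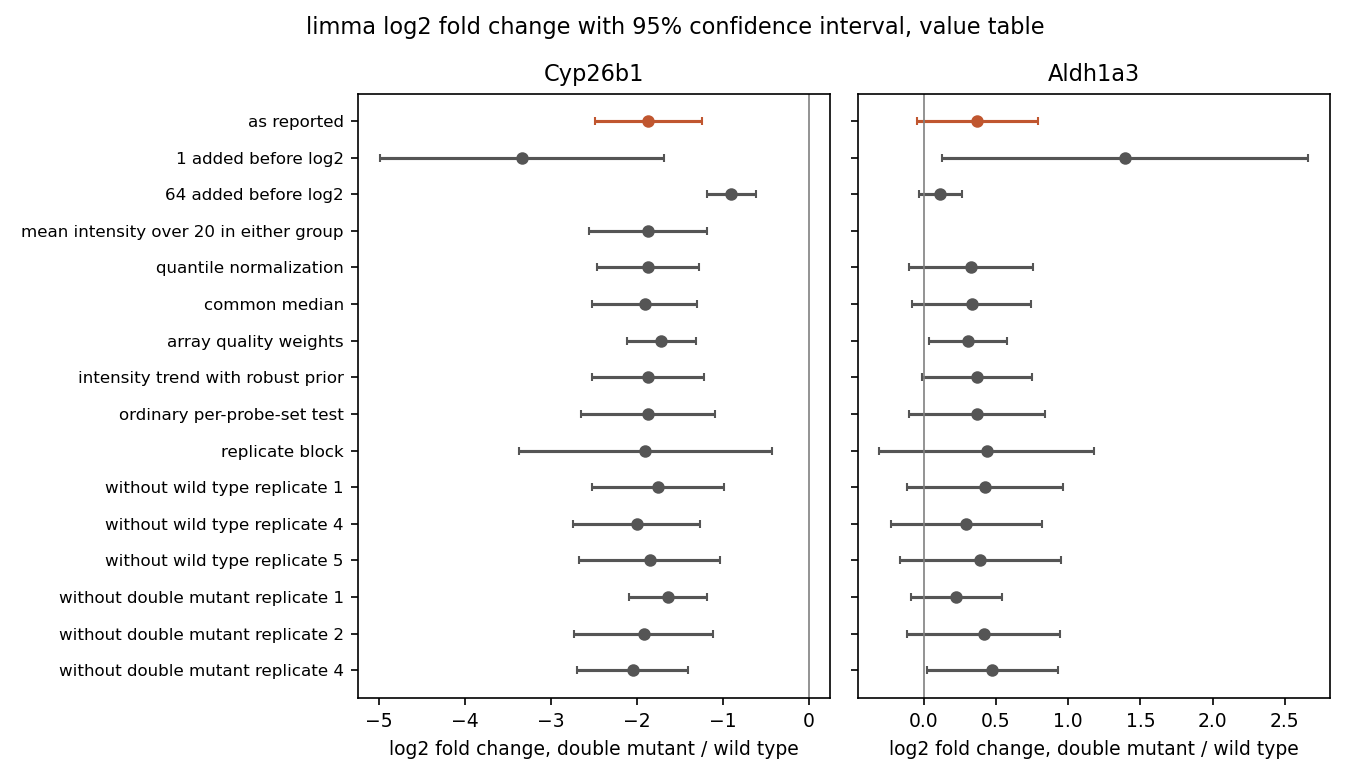
Log2 fold change of Cyp26b1 (left) and Aldh1a3 (right) in the value table, double mutant over wild type, by limma with 95% confidence intervals, for the fit as reported and for each alternative that kept the probe set. Every Cyp26b1 interval lies below 0, from -3.34 to -0.90 at the centre, while the Aldh1a3 interval includes 0 in all but 3 alternatives.

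Genes of retinoic acid metabolism and signalling were taken from lists by role, 60 genes in all, with Cyp26b1 and Aldh1a3 among them. Of these 60, 4 were listed in the deposited table: Aldh1a3, Nrip1 and Foxc1 as higher and Cyp26b1 as lower. For comparison, 842 genes were listed with a single symbol, 525 as higher and 321 as lower, with 4 of them in both directions. The median log2 fold of the 4 listed probe sets was 0.62, against 0.39 for all 928 listed probe sets with a single symbol. These 4 include both enzyme genes, and all 928 were picked on this same contrast. The medians are therefore descriptions and cannot show a shift of the pathway. Of 12 synthesis genes Aldh1a3 was the one listed, and of 3 degradation genes it was Cyp26b1. Both had been chosen from the deposited table, which lists 1.43% of the probe sets on the array as higher and 0.924% as lower. These shares are of probe sets and the counts are of genes, so they are not like for like. None of the 6 genes of storage and reduction and none of the 8 transport genes was listed. A gene that is not listed was not measured by name here, since the deposited table is the one source of probe set names used.

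Nrip1 was the one listed gene among 10 receptors and corepressors. It encodes a corepressor that binds nuclear receptors, including retinoic acid receptors, when their ligand is present. Its raw intensities were 1250.5, 1653.1 and 1766.1 in wild type and 2984.2, 2430.6 and 2554.4 on the arrays labelled double mutant 1, 2 and 4. All double-mutant arrays were above all wild-type arrays, and in the authors' deposited table Nrip1 was 1.72-fold higher with p = 0.0115 without correction. In the value table the limma log2 fold change was 0.96 ± 0.25 (SE), its adjusted p was 0.857, and the change was 0.73 ± 0.17 without the array labelled double mutant 1.

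Foxc1 was the one listed gene among 28 genes known as targets of retinoic acid signalling in some tissue. It encodes a forkhead transcription factor and responds to retinoic acid in the mesenchyme around the mouse eye. Its raw intensities were 66.3, 135.1 and 71.7 in wild type and 419.1, 483.8 and 252.6 on the arrays labelled double mutant 1, 2 and 4, without overlap. Foxc1 too was picked on this contrast, and the share of 6.72% given for Nrip1 applies here as well. The authors' deposited table gives Foxc1 as 4.31-fold higher, at an uncorrected p of 0.00818. The value table put the limma log2 fold change at 1.51 ± 0.28 (SE) and its adjusted p at 0.857, and the change was 1.43 ± 0.31 without the array labelled double mutant 1.

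**Figure D3:**
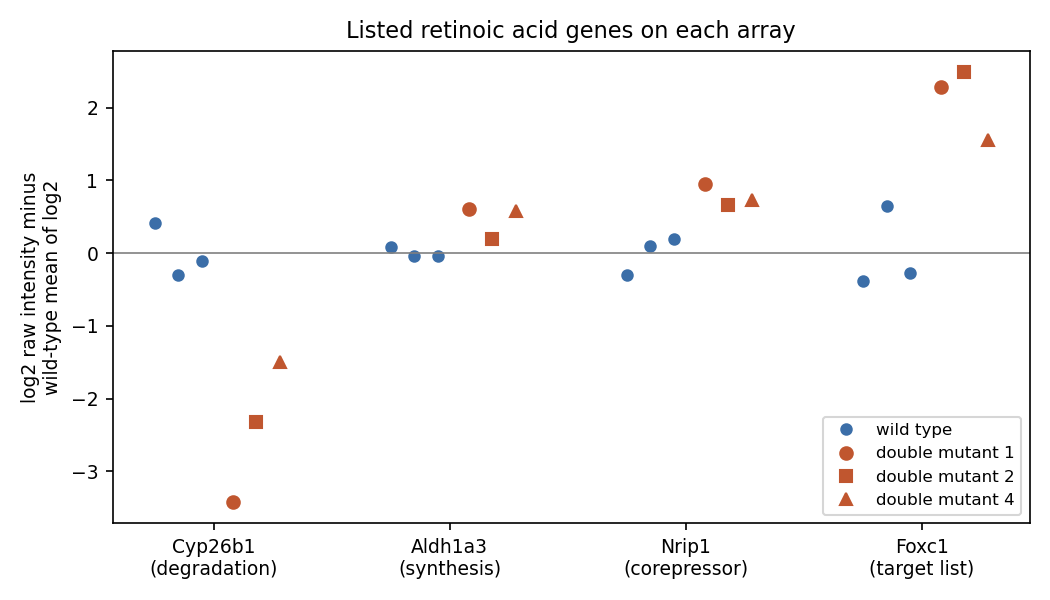
Log2 raw intensity of the 4 listed retinoic acid genes on each array, minus the wild-type mean of log2, with wild-type arrays in blue and double-mutant arrays in orange. Cyp26b1 lies below its wild-type arrays on all 3 double-mutant arrays, Foxc1 and Nrip1 lie above theirs, and Aldh1a3 of double mutant 2 lies just above its wild-type arrays.

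Markers of other cells were read from the same table, which lists 1.43% of the probe sets on the array as higher and 0.924% as lower. These shares are of probe sets, while the marker counts are of genes, and a gene counts as listed if any of its probe sets is. The share per gene is not known here. Of 6 markers of glia and Schwann cell precursors 3 were listed, Sox10, Erbb3 and Foxd3, all of them higher, and their summed raw intensity was 78.6 to 82.5 on wild-type arrays and 144.2 to 195.0 on double-mutant arrays. All 3 were dim, and none had an average raw signal above 100 in either group. Their wild-type means in the value table were 0.57 for Sox10, 1.03 for Foxd3 and 11.8 for Erbb3, which limits these values. In the value table each of the 3 had an adjusted limma p of 0.857, so none passed. Their part in the Aldh1a3 and Cyp26b1 differences was not tested. None of the 14 markers of surface, nasal and oral epithelium and none of the 8 of the optic and nasal placodes, tissues where Aldh1a3 is known to be active, was listed. The deposited table lists only probe sets that differed between the groups, so an unlisted marker does not show whether such cells were present. Of 13 arch mesenchyme markers 4 were listed, with Lhx8, Msx1 and Barx1 lower and Snai1 higher. In the value table the Lhx8 groups overlapped, and each of the 4 had an adjusted limma p of 0.857. Their summed raw intensity was 15112.6 to 15998.2 on wild-type arrays and 7558.6 to 10106.0 on double-mutant arrays. Lhx8, itself a mutated gene, made up a large part of this sum. It stood at 8627.8 to 9492.8 on wild-type arrays and 2711.0 to 5176.5 on double-mutant arrays, so the sum is not a measure of arch mesenchyme.

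The listed genes whose pattern over the arrays was most like that of Cyp26b1 were found by Pearson's r of log2 raw intensity over the 6 arrays, among 420 listed probe sets that had a single symbol and an average signal above 100 in at least one group. They were Rab38, which encodes a small GTPase of pigment organelles, at r = 0.992, 1200009O22Rik at 0.986, Trim27, which encodes a RING finger protein, at 0.985, and Rspo3, the gene of an R-spondin that boosts WNT signals, at 0.982. These 4 were listed as lower, by 1.37-fold to 3.15-fold in the authors' deposited table. Within the double mutants each was lowest on the array labelled double mutant 1 and highest on double mutant 4, as Cyp26b1 was; Rspo3, for example, stood at 137.6, 234.9 and 266.6 on the arrays labelled double mutant 1, 2 and 4.

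For Aldh1a3 the nearest among 421 such probe sets were Slc8a2, which encodes a sodium and calcium exchanger, at r = 0.993, Olfm1, which encodes the secreted protein olfactomedin 1, at 0.988, Cited2, which encodes a coregulator that binds the acetyltransferases CBP and p300, at 0.988, 1110006O24Rik at 0.976 and AU019823 at 0.975. All 5 were listed as higher, by 1.33-fold to 1.77-fold in the authors' deposited table. In each of them double mutant 2 was the lowest of the mutant arrays; Cited2, for example, stood at 420.4, 306.1 and 406.3 on the arrays labelled double mutant 1, 2 and 4. These coefficients are descriptions. All probe sets compared had been picked on the same 6 arrays for a difference between the same groups, and 71 of the 420 candidates for Cyp26b1 and 44 of the 421 for Aldh1a3 reached an r of 0.9.

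**Figure D4:**
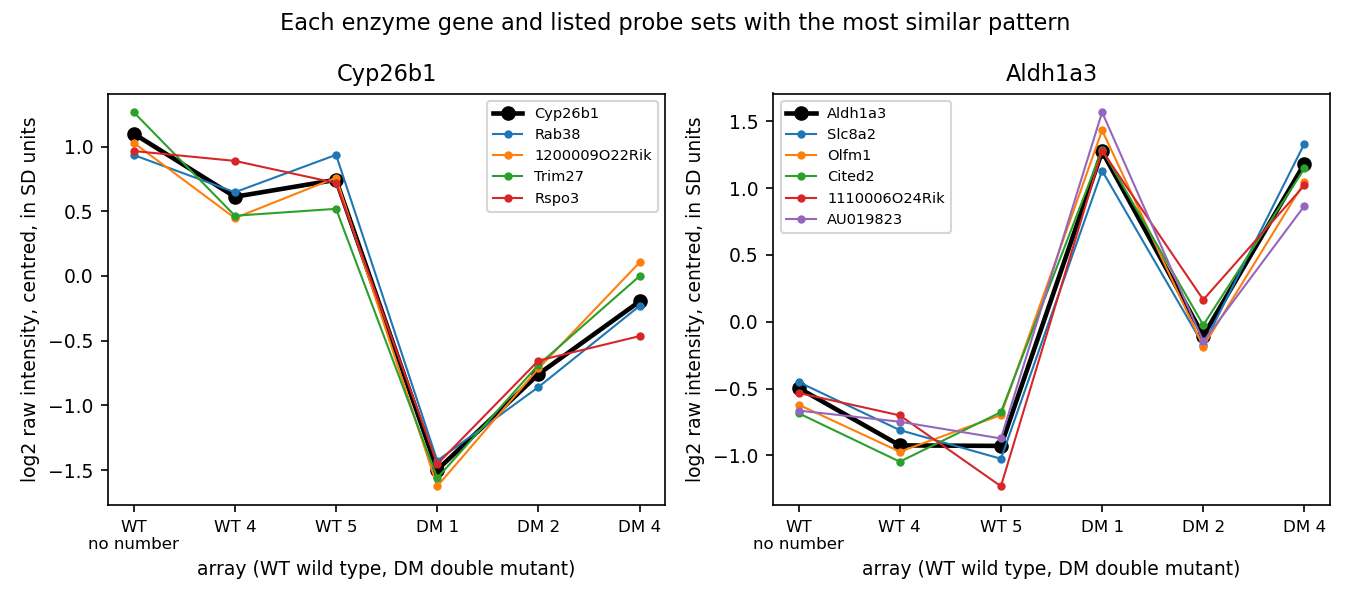
Log2 raw intensity over the 6 arrays, centred and in SD units, for Cyp26b1 (left, black) and Aldh1a3 (right, black) and the listed probe sets with the highest r to each (4 shown for Cyp26b1 and 5 for Aldh1a3). Cyp26b1 and its neighbours are lowest on the array labelled double mutant 1, and among the mutants Aldh1a3 and its neighbours are lowest on double mutant 2.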

How the data were processed

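The submitters' processing notes name RMA alone; how the value table was summarised is not stated. Its deposited intensities are linear and include zeros. The deposited significance table holds, per the file headers, p-values of an unpaired test without multiple testing correction (cut-off 0.05) and a larger-over-smaller fold (cut-off 1.25), with linear intensities called raw. Its 6 further per-array columns were not used. Columns were matched to samples by genotype and number; 1 wild-type column has a number that no title has and entered as a wild-type array without one.

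The deposited intensities of the value table were analysed as log2(intensity + 16) with limma 3.58.1 (R 4.3.3; lmFit, then eBayes). Group was the sole term, control probe sets were left out, no intensity filter was used, and p-values were adjusted by Benjamini-Hochberg over 45037 probe sets; the code was tested on simulated data. Python 3.11.15, numpy 2.4.6, pandas 2.3.3 and matplotlib 3.10.9 did the rest. The labels describe the arrays as different embryos. The genes named are both enzymes, every listed gene of the retinoic acid lists, the 5 listed probe sets most like each enzyme, except for an item that is left out here, the listed cell type markers, and Lhx8. Cyp2s1, Cyp4v3, Mll5 and Ncoa2 were chosen after their values were seen. The members, lists and the constant 16 were chosen with earlier results of these data known. Alternatives were other constants, filters, normalizations, weights and variance models, a replicate block and leaving out each array.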

Additional observations from a re-analysis of the deposited data

How the results depend on the processing

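Cyp26b1 kept its sign in all 15 alternatives that could be fitted and Aldh1a3 in all 14, with adjusted limma p from 0.0554 to 0.977 and from 0.429 to 0.977, so neither passed 0.05 anywhere. The log2 fold change ran from -3.34 (1 added before log2) to -0.90 (64 added) for Cyp26b1 and from 1.40 to 0.12 for Aldh1a3 under the same settings; without single arrays it ran from -2.05 to -1.64 and from 0.23 to 0.47. The filter at 100 dropped both genes and the filter at 20 dropped Aldh1a3. Geometric-mean log2 folds were -3.69 and 1.87 in the value table and -2.41 and 0.46 in the deposited table; without the array labelled double mutant 1 the value table gave -2.60 and 1.45, a setting chosen after seeing the data. Over single arrays left out, the deposited table gave -2.87 to -1.91 and 0.39 to 0.59.

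The count past adjustment was 0, but 9 with array weights and 1 by the ordinary test. The 1646 at an unadjusted p under 0.05 became 245 and 596 with the filters at 100 and 20, 4719 with array weights, 667 with the replicate block, and 796 to 3327 without single arrays (2825 without the array labelled double mutant 1). With the replicate block Cyp26b1 was at -1.90 and Aldh1a3 at 0.44, each with an adjusted limma p of 0.938. Numbers 1 and 4 alone occur in both groups, so wild type 5 and double mutant 2 did not inform that estimate. Same-numbered arrays deviated together at r = 0.048 and -0.0517, so the numbers were not taken as pairs. By Spearman's rho the nearest were taken as all probe sets tied at or above the fifth, 10 for Cyp26b1 and 8 for Aldh1a3. Of the 5 genes most like Cyp26b1, 3 were also among these, and 2 were among the nearest 5 without the array labelled double mutant 1. For Aldh1a3 these counts were 2 and 4. The cause of these shifts was not tested. Aldh1a3 lay below the array median on all 6 arrays of the value table, which limits its values.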

Other observations

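Chosen after the values were seen, the other listed genes of the cytochrome P450 and aldehyde dehydrogenase families and those tied to retinoic acid in the file's annotation were few. With Cyp26b1 and Aldh1a3, 4 genes of these families were listed. The others were Cyp2s1, with wild-type and double-mutant means of 105.8 ± 20.3 and 267.6 ± 109.9, and Cyp4v3, at 73.6 ± 33.6 and 33.5 ± 4.3 (raw intensity, SD, n = 3). In the authors' deposited table Cyp2s1 was 2.43-fold higher and Cyp4v3 2.08-fold lower. Of the 1061 listed probe sets 3 had a biological process term that names retinoic acid, and 2 of these, Cyp26b1 and Aldh1a3, had one for its metabolism, synthesis or breakdown. The third, Mll5, had wild-type and double-mutant means of 39.8 ± 12.5 and 20.3 ± 0.5, and its groups overlapped in the value table. Ncoa2, which encodes a coactivator of nuclear receptors, was 1.48-fold lower in the authors' deposited table, at 676.4 ± 112.5 and 457.9 ± 78.9.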
